A study of Mus musculus with 2 samples.

Results

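The cells described here are the macrophages and microglia of the uninjured optic nerve of the mouse, whose fibres run from the retina to the brain. They are all cells that the deposited table marks as uninjured except 1, in which haemoglobin genes took over 50% of the UMIs (unique molecular identifiers, which count single captured transcripts). This left 50 of 51 uninjured cells, out of 778 cells in the series. The mice were wildtype, of strain 129S1/SvlmJ, aged 10 weeks and untreated. The design text gives both sexes, and the sample label gives postnatal day 56 for the source. The dissected nerve was digested and triturated, so these cells had passed through dissociation, and they were captured in droplets with the 10x Genomics 3' chemistry. The uninjured cells make up 1 library. Nothing here was therefore tested, the 50 cells are not replicates, and the 95% intervals cover counting error only.

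Microglia are the resident macrophages of the central nervous system. They survey the tissue with fine processes, clear debris and dead cells, and are marked by the purine receptor P2ry12, the lectin Siglech, the membrane protein Tmem119 and the fractalkine receptor Cx3cr1. Border macrophages live along the meninges and vessels and carry scavenger receptors such as Mrc1, Cd163 and Lyve1. Class II genes encode the molecules that present peptides to helper T cells.

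The 50 cells held 76399 UMIs of 8093 genes. Depth per cell ran from 458 to 9567 UMIs with a median of 884.5, and genes per cell from 226 to 2419 with a median of 482. A count of 0 over all cells allows up to 39.3 CPM (counts per 1000000 UMIs of the cells summed). The 3 cells above 5000 UMIs, called deep cells here, held 24836 UMIs, 32.5% of the total, so sums follow them closely. No cell barcode was shared between the libraries of the series.

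The label was checked against 10 genes that most macrophages express, among them the growth factor receptor gene Csf1r and the complement genes C1qa, C1qb and C1qc. At least 2 of these had a UMI in 47 of the 50 cells (94%, 83.5 to 98.7). The other 3 cells had none of the 10 and go against the label. A Malat1-rich cell of 835 UMIs held 3 UMIs of the T cell kinase gene Txk and 2 of the T cell costimulator gene Cd28, but no UMI of the 7 listed T and NK cell genes. A cell of 546 UMIs held 25 UMIs of 4 endothelial genes, with Bsg at 16 and Cldn5 at 4. A cell of 458 UMIs held 7 UMIs of 2 fibroblast genes, 6 of them Igfbp5. Listed genes of monocytes, T and NK cells, mast cells and pericytes had no UMI in any of the 50 cells. Results are given with all 50 cells, and those that turn on these 3 are given without them as well.

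The most abundant transcript was Cst3, which encodes the protease inhibitor cystatin C. It had 2556 UMIs in 47 cells, 33456 CPM (32171 to 34779), and the 3 cells without it were all Malat1-rich. The nuclear RNA Malat1 followed with 2119 UMIs in 32 cells. Apoe, the main lipid carrier gene of the nervous system, had 1421 UMIs in 30 cells, but 1099 of these lay in 2 deep cells, 769 in one and 330 in the other. Its rank thus reflects few cells. Tmsb4x, which encodes an actin-binding peptide, had 1056 UMIs, and the ferritin heavy chain gene Fth1 had 1047 UMIs in 49 cells. The lysosomal protease gene Ctss had 423 UMIs in 41 cells. The complement genes C1qa and C1qb had 419 and 378, in 43 and 41 cells. Ccl4, a chemokine gene, had 372 UMIs in 20 cells, of which 157 lay in 1 cell, and Cd74, the class II invariant chain gene, had 360 UMIs in 8 cells. The 25 most abundant genes together took 24.1% of UMIs (23.8 to 24.4), and 6 of them were mitochondrial and 3 ribosomal protein genes. Gm42418, whose position overlaps ribosomal RNA and whose reads are uncertain for that reason, had 885 UMIs and was seen in all 50 cells.

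Mbp, the gene of myelin basic protein, was also among the 25, with 421 UMIs in 49 of the 50 cells. Macrophages are not known as a source of its myelin form, so the cell rich in haemoglobin was read as a reference from the same droplets. Of its 906 UMIs that were not haemoglobin, 16 were Mbp (1.77%, 1.01 to 2.85), against 0.551% of UMIs in the 50 cells (0.4998 to 0.6061). That reference cell held no UMI of Cst3, Apoe, C1qa, Ctss or P2ry12. Summed over the 50 cells, Mbp thus took a smaller share of UMIs than in the reference, which is 1 cell without its haemoglobin. The 10 listed oligodendrocyte genes, Mbp among them, had 18 UMIs in the reference cell and 2 to 123 in each of the 50. The source of the Mbp UMIs was not tested. Free RNA caught in a droplet can add UMIs of abundant genes to any cell.

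A cell was counted as microglial, class II or border-macrophage when at least 2 genes of the respective list had a UMI. The microglia list was met by 30 of 50 cells (60%, 45.2 to 73.6), the class II list by 4 (8%, 2.22 to 19.2) and the border list by 2 (4%, 0.488 to 13.7). In all, 28 cells met the microglia list alone, 2 class II alone, 1 border alone, 1 microglia and class II, and 1 met all 3. The remaining 17 met none, and 14 of them held pan-macrophage genes. Median depth was 642.5 UMIs in these 14 (481 to 1119) and 1184.5 in the 28 cells that met the microglia list alone (534 to 6406). Without the 3 cells that go against the label, the microglia share was 63.8%. With every cell thinned to 450 UMIs the microglia list was met by 19 cells (38%, 24.7 to 52.8), so this share follows depth, while the class II and border counts stayed at 4 and 2. Of the 30 cells that met the microglia list, 5 lay at the divide with exactly 2 genes, and 5 further cells had exactly 1.

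**Figure D1:**
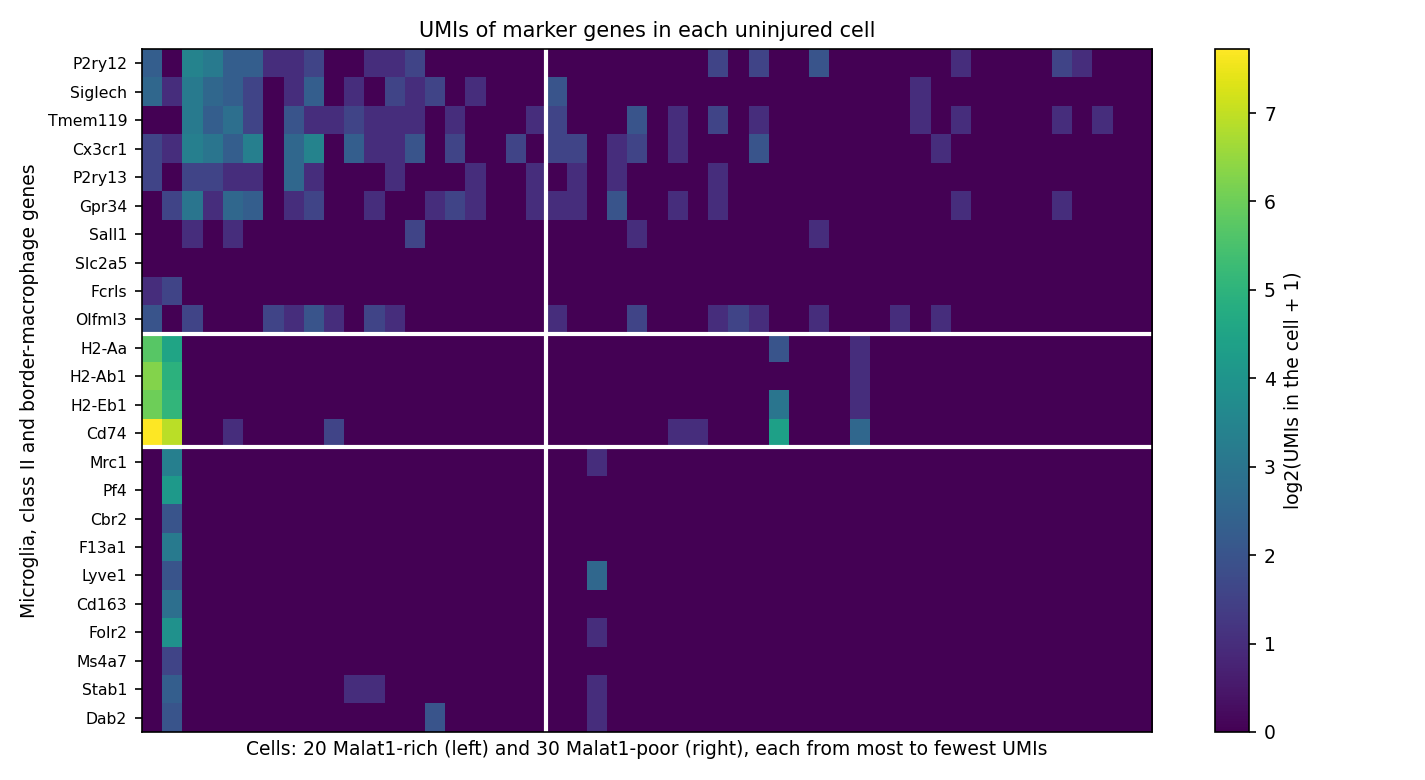
UMIs of the 10 microglia, 4 class II and 10 border-macrophage genes (rows) in each of the 50 uninjured cells (columns), as log2(UMIs + 1). Malat1-rich cells are left of the vertical line and Malat1-poor cells right of it, each in order of depth; microglia genes are spread over many cells, while class II and border genes sit in few columns.

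The microglia genes were scarce in each cell. Cx3cr1 had 72 UMIs in 21 cells, 942 CPM (737 to 1187), with at most 10 in a cell. P2ry12 had 49 UMIs in 17 cells (641 CPM, 474 to 848), also with at most 10. Tmem119, the most widely seen of the 4 defining genes, had 45 UMIs in 22 cells, and Siglech had 41 UMIs in 15 cells. The purine receptor gene P2ry13 and the lysophospholipid receptor gene Gpr34 had 20 and 37 UMIs, in 13 and 19 cells, and Olfml3 had 25 in 16. Sall1, a transcription factor gene of microglial identity, had 6 UMIs, Fcrls had 3 and the sugar transporter gene Slc2a5 had none. Fcrls differed from the others in its cells, since its 3 UMIs lay in 2 cells, both deep and both with class II genes. The deepest cell that met the microglia list alone, with 6406 UMIs, held 8 of the 10 genes. It also held 157 UMIs of Ccl4, 68 of Cd83, 43 of Il1a and 41 of Cxcl10.

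Class II UMIs were gathered in few cells. H2-Ab1, H2-Aa and H2-Eb1, the chains of the class II molecules, had 108, 77 and 105 UMIs in 3, 4 and 4 cells. The deepest cell, with 9567 UMIs, held 402 class II UMIs, 4.20% of its own, together with 17 UMIs of 6 microglia genes and no border gene. It also held 769 of the 1421 Apoe UMIs, 135 of the 186 UMIs of the chemokine gene Ccl12 and 93 of the 160 UMIs of the cytokine gene Il1b. The second cell, with 8863 UMIs, held 205 class II UMIs and all 10 border genes with 69 UMIs, among them Pf4 at 17, Folr2 at 14, Mrc1 at 9 and Cd163 at 6. Retnla, an alternative-activation gene, had 39 UMIs, all in this cell, and the lysozyme gene Lyz2 had 168 of its 213 UMIs there. This cell also had 6 UMIs of 4 microglia genes, but none of P2ry12 or Tmem119, so meeting the microglia list does not make it a microglial cell. Neither cell was checked with a doublet caller, so 2 cells in 1 droplet and 1 cell of mixed character cannot be told apart. The part of free RNA in the microglia UMIs of either cell was not tested. The 2 Malat1-poor class II cells, of 652 and 743 UMIs, had 8 and 30 class II UMIs and no microglia or border gene.

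The other border cell had 1422 UMIs and was Malat1-poor. It held 9 UMIs of 5 border genes, 5 of them Lyve1, a hyaluronan receptor gene, with Mrc1, Folr2, Stab1 and Dab2 at 1 each. It also held 9 of the 17 UMIs of Fcna, which encodes a ficolin, and 7 of the 13 UMIs of Fn1, the fibronectin gene. It had no microglia or class II UMI. These single-cell genes, and those of the 3 cells without pan-macrophage UMIs, were named after their values were seen.

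The cells were then divided by Malat1, a long noncoding RNA that stays in the nucleus, at 1% of a cell's UMIs. This gave 20 Malat1-rich cells of 1.93% to 10.9% (median 4.91) and 30 Malat1-poor cells of 0% to 0.281%, of which 18 had no Malat1 UMI. The cell nearest above the divide was thus at 1.93%, and the nearest below, the border cell of 1422 UMIs, at 0.281%. Malat1 chose the groups, so its own level is no result. Both kinds also differed in other ways that move with every comparison between them. Median depth was 1518.5 UMIs in rich and 657 in poor cells, and all 3 deep cells were rich. Ribosomal protein genes took a median 3.26% of UMIs in rich cells (1.03 to 25.8) and 25.2% in poor cells (6.23 to 41.9). Mitochondrial genes took 3.82% (0.416 to 9.99) and 8.11% (1.03 to 19.0), and the 10 oligodendrocyte genes 0.715% and 1.58%. The ranges of each overlapped. The part of these differences in the results below was not tested.

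**Figure D2:**
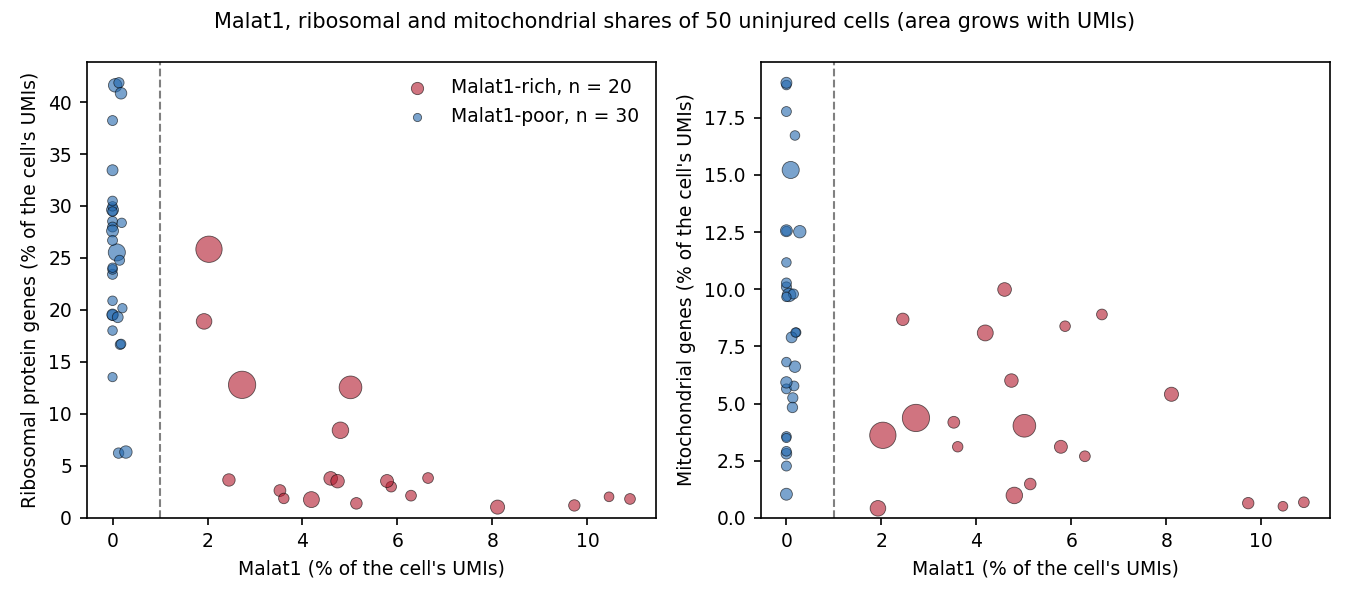
Share of UMIs in ribosomal protein genes (left) and in mitochondrial genes (right) against the Malat1 share, for 20 Malat1-rich (red) and 30 Malat1-poor (blue) cells; each point is a cell, its area grows with its UMIs, and the dashed line is the 1% divide. The rich cells have a median of 3.26% ribosomal UMIs and the poor cells of 25.2%, and the 3 deep cells, the largest points, lie between 12.6% and 25.8%.

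Levels were compared as summed CPM, 50449 UMIs in rich and 25950 in poor cells, for 1071 genes with at least 10 UMIs and seen in at least 5 cells. Rich cells held 66.0% of all UMIs, so scarce genes could pass this filter through rich cells alone, as 112 genes without a poor UMI did. Counts of genes called higher in rich cells, over all genes and within lists, lean on this. A gene was called at a 2-fold difference on the scale of log2 (CPM + 50), which understates the differences of scarce genes. Of the genes compared, 392 (36.6%) were higher in rich cells and 188 (17.6%) in poor cells, and the median log2 difference was 0.33. Many calls rest on few UMIs: the counting interval of the ratio lay wholly above 1 for 280 of the 392 and wholly below 1 for 151 of the 188. Without the 3 cells that go against the label the counts were 379 and 177. In cells under 5000 UMIs, 285 of 712 genes (40%) were higher in rich and 217 (30.5%) in poor cells, with intervals clear of 1 for 231 and 180. Among the genes compared in both, 240 of 252 kept their call in rich and 140 of 157 in poor cells. A gene without a UMI in the poor cells can lie there at up to 116 CPM, and its ratio is given as a bound against this level.

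The 12 genes with the highest ratios had 42 to 174 UMIs each. Il1b, which encodes a secreted interleukin, had 160 UMIs in 8 rich cells and none in poor cells, at least 27.4-fold higher, though 93 of its UMIs lay in 1 cell. Hspa1a and Hspa1b, inducible chaperone genes so alike in sequence that counts may be divided wrongly between them, had 94 and 69 UMIs in 10 and 9 rich cells and none in poor cells, at least 16.1-fold and 11.8-fold higher. Each of these genes was thus absent from at least 10 of the 20 rich cells. Others were spread more widely. Son, a splicing factor gene, had 48 UMIs in 19 of 20 rich cells and none in poor cells, at least 8.23-fold higher, and Skil, a brake on TGF-beta signalling, had 80 UMIs in 17 rich cells and was at least 13.7-fold higher. Dennd4a had 81 UMIs in 14 rich cells, at least 13.9-fold more than poor cells, where it was not seen. Jmjd1c and the histone demethylase gene Kdm6b had 45 UMIs each and none in poor cells, for a bound of 7.72-fold.

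Cd83, a surface gene of activated myeloid cells, had 171 UMIs in 14 rich cells and 3 in 3 poor cells, a ratio of 29.3 (9.87 to 144). Slc1a3, a glutamate transporter gene that the astrocyte list also holds, had 86 UMIs in 17 rich cells and 1 in a poor cell, a ratio of 44.2 (7.73 to 1767). The adhesion gene Icam1 had 85 and 1 UMIs, a ratio of 43.7 (7.64 to 1747), and the chemerin receptor gene Ccrl2 had 42 and none. All 12 were also past 2-fold in cells under 5000 UMIs and with each cell weighted equally.

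The 12 genes with the lowest ratios had 10 to 124 UMIs each. Mobp, a myelin gene, had 34 UMIs in rich and 90 in poor cells, 5.15-fold higher in poor cells (3.43 to 7.88), and Cldn11, another myelin gene, had 3 and 12. Kif5a, a neuronal kinesin gene, had 6 and 27 UMIs (8.75-fold, 3.54 to 25.9), and Stmn1, a tubulin-binding gene, had 2 and 14. The other 5 genes of the neuron list had no UMI in any of the 50 cells, and Stmn1 is not specific to neurons. The haemoglobin-rich cell held 1 UMI of Mobp, and Mbp took 0.285% of UMIs in rich and 1.07% in poor cells. The part of free RNA in these differences was not tested. Tmsb10, an actin-binding gene, had 12 and 31 UMIs (5.02-fold, 2.51 to 10.7). The lactate dehydrogenase gene Ldhb had 3 and 19 UMIs, a ratio of 12.3 (3.62 to 65.0), and the mitochondrial chaperonin gene Hspe1 had 1 and 16, a ratio of 31.1 (4.83 to 1304). Fn1 had 3 and 10 UMIs. Of the 10, 7 lay in the border cell and 1 each in the cells with endothelial and fibroblast genes, which go against the label. Without those cells Fn1 was seen in fewer than the 5 cells needed to be compared. Ccnd1, Plekhb1, Fis1 and Gngt2 had 8 to 14 poor UMIs. Gngt2 was within 2-fold with each cell weighted equally, at -0.95 on the log2 scale.

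**Figure D3:**
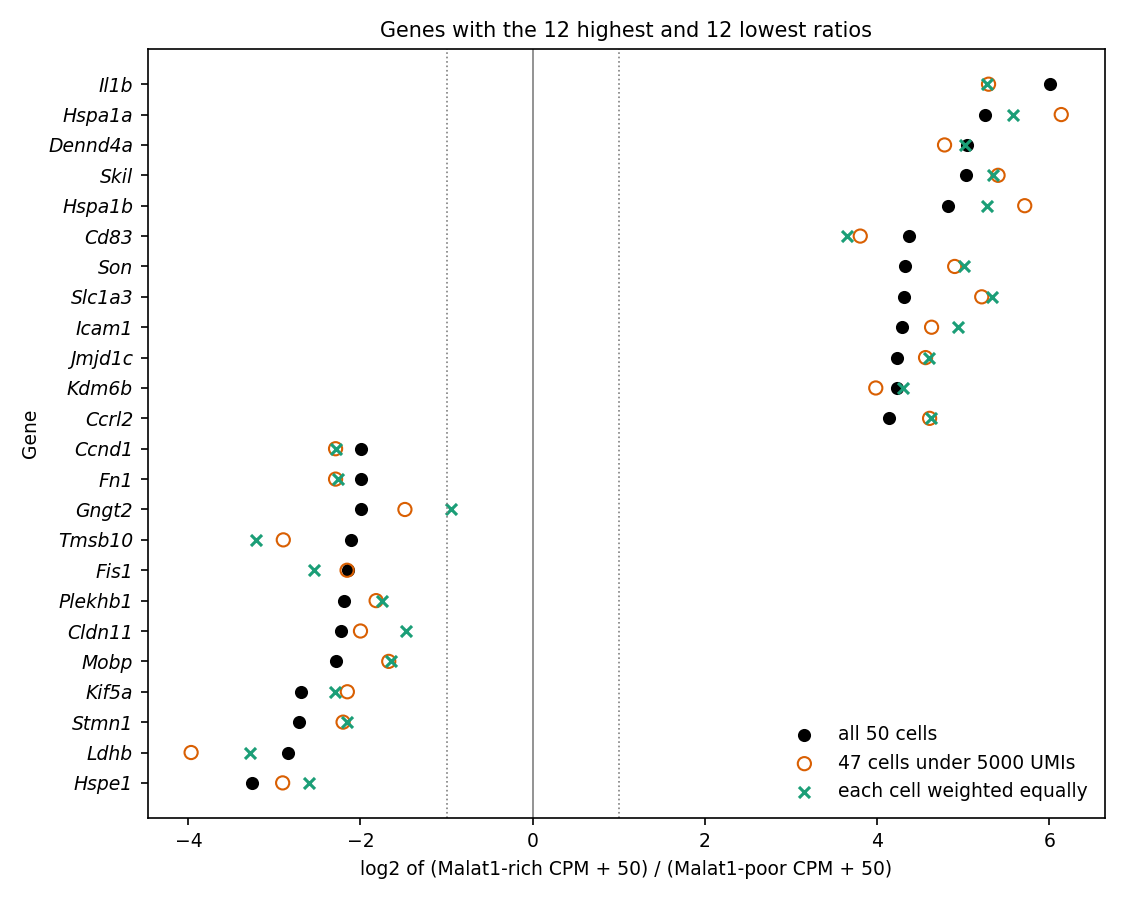
Log2 difference between Malat1-rich and Malat1-poor cells, with 50 CPM added to both levels, for the genes at both ends of the ranking (rows, 12 at each end). Filled points use all 50 cells, open points the 47 cells under 5000 UMIs and crosses give each cell the same weight; dotted lines mark 2-fold, and only Gngt2, by the crosses, lies inside them.

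Listed genes of the response to acute stimulation were mostly higher in rich cells. Of the 12 listed cytokine and NF-kappa-B genes, 9 were compared and 9 were higher, beside 36.6% of all compared genes, with a median log2 difference of 3.25 beside 0.33. The list held 677 UMIs in rich and 26 in poor cells, so its genes passed the filter mainly through rich cells. Passing it thus nearly fixed the call, and the count is no separate support. The summed level of the list was 13419 CPM in rich and 1002 CPM in poor cells, 13.4-fold higher (9.06 to 20.7), and 10.4-fold in cells under 5000 UMIs. Nfkbia, which encodes the inhibitor that NF-kappa-B itself induces, had 70 UMIs in 15 rich cells and 5 in 4 poor cells, a ratio of 7.20 (2.94 to 22.9). Tnfaip3, another feedback inhibitor gene, had 36 and 1, and the receptor gene Tlr2 had 41 and 1. The list took 0.0870% to 2.72% of UMIs in rich cells, with a UMI in each of the 20, and 0% to 0.789% in poor cells, so the ranges overlapped. Of the 12 listed chemokine genes 5 were compared and 5 were higher, beside 36.6% of all compared genes. The chemokine list held 832 UMIs in rich and 40 in poor cells, so the same limit applies to this count. Its sum was 10.7-fold higher (7.79 to 15.1), and 5.85-fold in cells under 5000 UMIs. Ccl4 had 357 UMIs in 11 rich and 15 in 9 poor cells, a ratio of 12.2 (7.32 to 22.1), and Ccl12 had 179 and 7, with 135 of the 179 in the deepest cell.

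Of the 17 listed immediate early genes, which respond within minutes to many stimuli including tissue dissociation, 15 were compared and 14 were higher, beside the same 36.6%. None was lower, and the median log2 difference was 2.02, or 1.97 with genes lacking poor UMIs at their bound. Their sum was 28504 CPM in rich and 5896 CPM in poor cells, 4.83-fold higher (4.09 to 5.75). Jun, a subunit of AP-1, had 184 UMIs in 17 rich and 17 in 8 poor cells, a ratio of 5.57 (3.38 to 9.77), and Junb had 214 in 16 and 29 in 11, a ratio of 3.80 (2.57 to 5.81). Per cell, Jun had a median of 6.5 UMIs in rich cells, from 0 to 38, and of 0 in poor cells, from 0 to 4. Of the 11 listed heat shock genes 9 were compared, with 6 higher in rich cells, 2 within 2-fold and 1, Hspe1, higher in poor cells. The sum was 2.59-fold higher (2.02 to 3.37). Hspa8 had a ratio of 2.83 (1.59 to 5.42), while Hsp90ab1, at 40 and 25 UMIs, was within 2-fold.

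Because 9 cytokine and NF-kappa-B genes were higher together, the promoters of the genes were searched for the kappa B consensus, the DNA motif that NF-kappa-B binds. Promoters were RefSeq sequences of build GRCm38.p6, from 250 bases before to 50 after each start site, read on both strands. The search found the consensus at 6 of the 9 listed genes with a promoter. The list was drawn up to hold NF-kappa-B genes, so this share is no result about the rich cells. It was present at 4.51% of 32851 promoters, 7.64% of the 825 compared genes with a promoter, 9.51% of 305 higher in rich cells and 7.41% of 135 higher in poor cells. The 250 bases before the start site are shown, 5′ to 3′ on the gene's strand, for 4 genes higher in rich cells that hold it, chosen after the match was seen, with the matched bases in capitals.
Tnfaip3, chr10:19015411-19015660, minus strand: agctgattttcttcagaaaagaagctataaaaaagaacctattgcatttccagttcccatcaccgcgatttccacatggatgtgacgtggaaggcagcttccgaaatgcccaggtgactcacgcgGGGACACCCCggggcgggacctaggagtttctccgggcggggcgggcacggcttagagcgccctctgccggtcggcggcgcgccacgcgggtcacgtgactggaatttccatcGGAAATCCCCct
Nfkbia, chr12:55492648-55492897, minus strand: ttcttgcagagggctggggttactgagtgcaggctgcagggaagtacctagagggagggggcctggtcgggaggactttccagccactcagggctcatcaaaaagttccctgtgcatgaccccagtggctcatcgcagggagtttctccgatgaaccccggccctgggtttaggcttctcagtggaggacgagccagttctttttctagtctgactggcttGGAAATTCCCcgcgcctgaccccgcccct
Rel, chr11:23770970-23771219, minus strand: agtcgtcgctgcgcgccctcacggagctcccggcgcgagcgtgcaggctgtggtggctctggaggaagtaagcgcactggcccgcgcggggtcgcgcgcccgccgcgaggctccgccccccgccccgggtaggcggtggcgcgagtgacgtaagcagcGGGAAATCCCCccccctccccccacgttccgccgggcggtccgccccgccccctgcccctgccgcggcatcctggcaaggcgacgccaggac
Ccrl2, chr9:111057519-111057768, minus strand: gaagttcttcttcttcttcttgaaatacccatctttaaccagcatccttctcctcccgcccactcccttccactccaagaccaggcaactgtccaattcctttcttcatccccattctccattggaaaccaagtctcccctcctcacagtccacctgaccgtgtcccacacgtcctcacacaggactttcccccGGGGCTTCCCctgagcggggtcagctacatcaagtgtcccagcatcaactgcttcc
The matches of Tnfaip3 begin 125 and 12 bases before the start site, that of Nfkbia 29 and that of Ccrl2 56 bases before it, while Rel, the gene of an NF-kappa-B subunit, holds 2 overlapping matches from 92 and 91 bases before it. Rel had 34 UMIs in 10 rich cells and none in poor cells. The other RefSeq start sites of Tnfaip3 and Ccrl2 hold no match. No match was found at Il1b, Icam1, Il1a or Tnf either. A match describes letters and not a bound site. The heat shock element, searched as GAA, TTC and GAA units each 2 bases apart, was found at 3 of 8 heat shock genes and 0.603% of all promoters, 1.45% of those of compared genes, 0.984% of those higher in rich cells and 2.96% of those higher in poor cells. The 3 genes were Hsph1, Hspd1 and Hspe1, and Hspa1a and Hspa1b had no match. The promoters of Hspd1 and Hspe1 overlap on opposite strands and share the same matched bases, so they are not separate finds. Another start site of Hspd1 held no match, and the match of Hsph1 began 16 or 37 bases after its start sites. The PU.1 core GAGGAAGT was found at none of 8 microglia genes, 3.20% of all promoters, 5.82% of those of compared genes, 7.21% of those higher in rich cells and 2.96% of those higher in poor cells. The CArG box, bound by serum response factor, was found at 1 of 15 immediate early genes, 1.63% of all promoters, 2.30% of those of compared genes, 2.30% of those higher in rich cells and 2.22% of those higher in poor cells. All 4 motifs were searched on both strands.

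Transcription factor and receptor genes of myeloid cells were mostly higher in rich cells as well. Of 11 listed transcription factor genes 9 were compared and 8 were higher, where 36.6% of all compared genes were. The sum was 3.96-fold higher (2.97 to 5.38). Mef2c had 51 and 2 UMIs, a ratio of 13.1 (3.45 to 111), and Cebpb had 78 and 11. Of 8 listed receptor genes for colony-stimulating factors, TGF-beta and interleukins 6 were compared and 5 were higher, against the same share of all genes, 3.01-fold as a sum (2.175 to 4.269). Tgfbr1 had 41 UMIs in 16 rich cells and 4 in 4 poor cells, a ratio of 5.27 (1.91 to 20.3). Csf1r, the receptor on which microglia depend for survival, had 121 UMIs in 19 rich and 34 in 15 poor cells. Its ratio was 1.83 (1.24 to 2.76), within 2-fold, and it passed 2-fold in cells under 5000 UMIs at a log2 difference of 1.41.

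The microglia list was met by 18 of 20 rich cells (90%, 68.3 to 98.8) and 12 of 30 poor cells (40%, 22.7 to 59.4). Thinned to 450 UMIs, these were 12 of 20 (60%, 36.1 to 80.9) and 7 of 30 (23.3%, 9.93 to 42.3), and the intervals overlapped. Of the 10 genes 7 were compared, 3 were higher in rich cells and none lower, a share close to the 36.6% of all compared genes. The sum was 1.88-fold higher (1.42 to 2.52) and 2.60-fold in cells under 5000 UMIs. Siglech had 37 UMIs in 13 rich and 4 in 2 poor cells, a ratio of 4.76 (1.71 to 18.4), Cx3cr1 60 and 12, a ratio of 2.57 (1.37 to 5.25), and P2ry13 17 and 3, a ratio of 2.91 (0.843 to 15.5). P2ry12, at 38 and 11, and Tmem119, at 32 and 13, were within 2-fold.

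Other macrophage genes were mostly near each other in both kinds. Of all compared genes, 36.6% were higher in rich and 17.6% in poor cells, and the rest were within 2-fold. Of the 10 pan-macrophage genes 9 were within 2-fold and 1, Tyrobp, was higher in poor cells, at 65 and 82 UMIs (2.45-fold, 1.75 to 3.45). The summed level of the list was 32250 CPM in rich and 35761 CPM in poor cells. Per cell, its median share of UMIs was 1.92% in rich and 3.22% in poor cells. C1qa had 285 and 134 UMIs, a ratio of 1.09 (0.888 to 1.35). Of 19 compared lysosomal genes 17 were within 2-fold, and of 4 compared Fc receptor genes all 4 were. Of 5 compared complement genes 3 were within 2-fold and 2 were higher in rich cells.

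Ribosomal protein and mitochondrial genes were often higher in poor cells. Of 82 compared ribosomal protein genes 57 were higher in poor cells and none in rich cells, and of 12 mitochondrial genes 9 and none, where 17.6% of all compared genes were higher in poor cells. Of 11 compared actin genes 8 were within 2-fold, 2 were higher in poor cells and 1 in rich cells. Their summed level was still 2.16-fold higher in poor cells, at 37958 CPM against 17602 CPM, and 4.02-fold in cells under 5000 UMIs. Per cell the actin genes took a median 0.727% of UMIs in rich and 3.57% in poor cells. Cst3 was at 23786 CPM in rich and 52254 CPM in poor cells, 2.20-fold higher in poor cells (2.03 to 2.38), but in cells under 5000 UMIs it was within 2-fold, at -0.90 on the log2 scale. Tmsb4x was 3.14-fold higher in poor cells (2.77 to 3.56), with a median of 18 UMIs per poor cell and 3 per rich cell. B2m, the class I light chain gene, was 2.48-fold higher in poor cells (1.67 to 3.72), while H2-K1, a class I heavy chain gene, was 3.20-fold higher in rich cells (1.57 to 7.36). Of 7 compared oligodendrocyte genes 5 were higher in poor cells and none in rich cells, beside the same 17.6%.

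**Figure D4:**
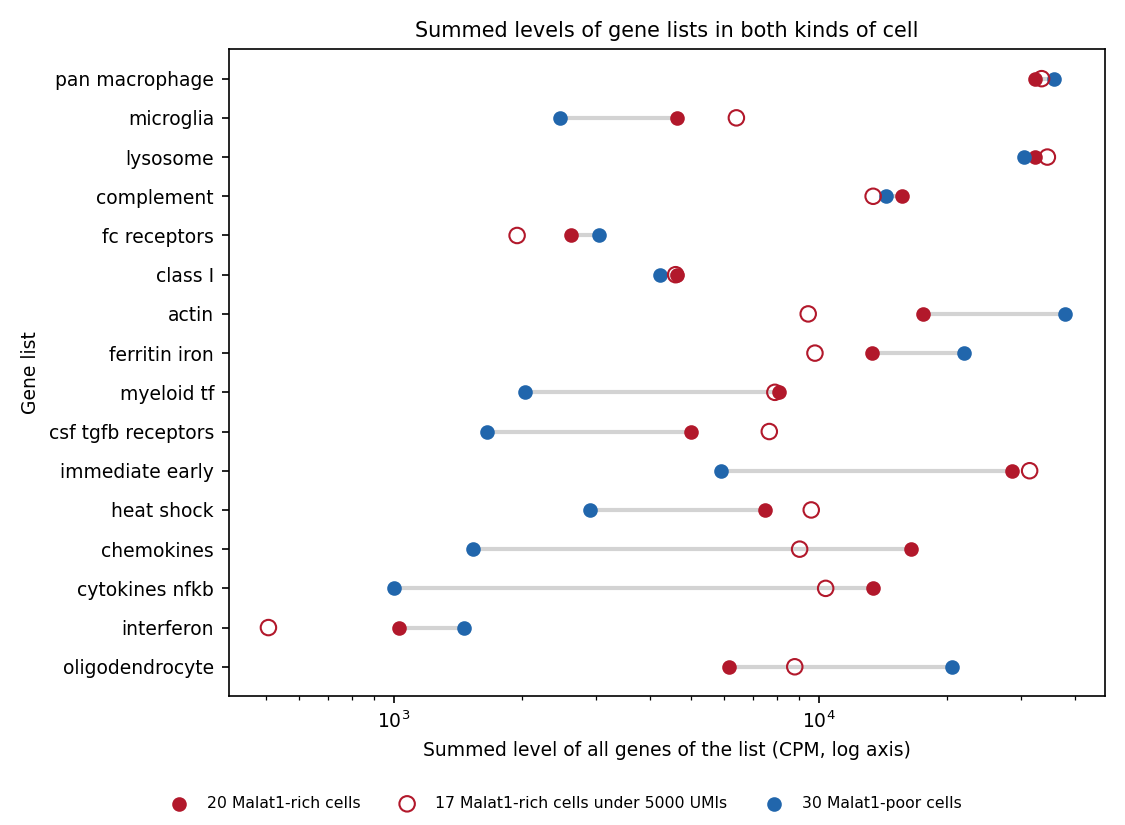
Summed level in CPM (log axis) of all genes of each list (rows) in 20 Malat1-rich cells (filled red), in the 17 of them under 5000 UMIs (open red) and in 30 Malat1-poor cells (blue). The cytokine, chemokine and immediate early lists are several-fold higher in rich cells, pan-macrophage and lysosome lists lie close together, and the oligodendrocyte list is higher in poor cells.

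For some genes the direction rested on the deep cells. Apoe had 1141 UMIs in rich and 280 in poor cells, a log2 difference of 1.06, which turned to -2.68 without the 3 deep cells and to -0.78 with each cell weighted equally. Cd74 turned from 2.61 to -2.71 without them, Lyz2 from 1.40 to -2.72 and Ccnd2 from 1.22 to -1.45. The class II list as a whole had a ratio of 7.84 (5.69 to 11.1), and 0.0760 in cells under 5000 UMIs. No difference in these genes between both kinds of cell can be read from the data.

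Genes higher in rich cells spanned longer stretches of the genome. Spans were taken from GENCODE vM21 by symbol, for 1062 of the 1071 genes (99.2%). The median span was 29.8 kb for 388 genes higher in rich cells, 16.8 kb for 487 within 2-fold and 4.38 kb for 187 higher in poor cells, or 6.09 kb without ribosomal protein genes. Of these groups 21.1%, 7.60% and 0.535% were longer than 100 kb. In cells under 5000 UMIs the medians were 33.9, 17.2 and 4.37 kb. Neat1, a nuclear RNA like Malat1, had 41 UMIs in 12 rich cells and none in poor cells.

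**Figure D5:**
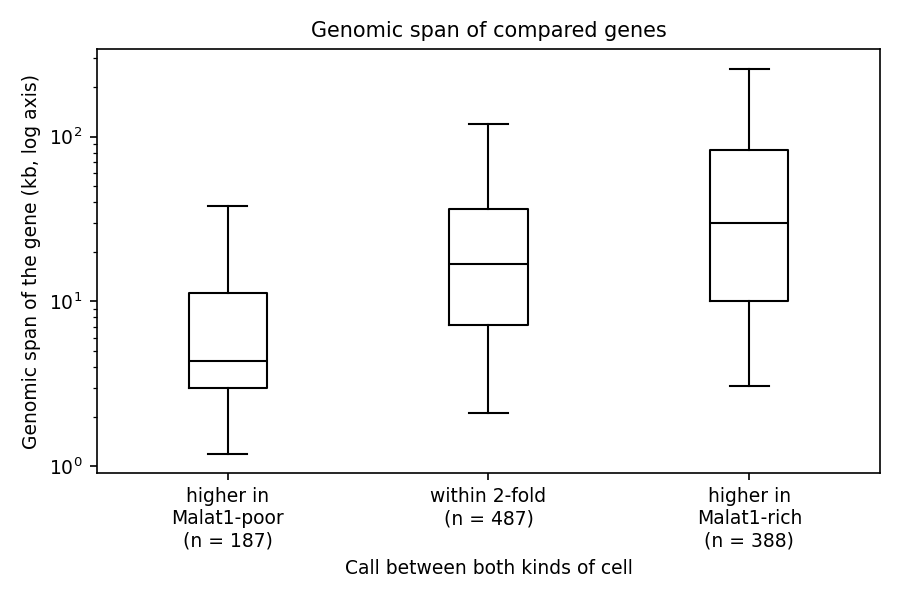
Genomic span in kb (log axis) of genes higher in Malat1-poor cells, within 2-fold and higher in Malat1-rich cells; the line is the median, the box the middle of the genes from lower to upper quartile, and the whiskers reach the 5th and 95th percentiles. The medians are 4.38, 16.8 and 29.8 kb.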

How the data were processed

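The data are UMI counts, whole numbers for each gene in each cell, that the authors deposited as a single table without normalization, with a line naming each cell's condition. Software named in the submitters' processing notes was Cell Ranger 1.3, Seurat 4.0.3 and bcl2fastq 2.17.1.14. Per the labels' design text, reads were aligned to mm10 and cells of 200 to 6500 genes were kept. The sources used here do not give how cells were chosen as macrophages or how many animals were pooled. Of 31053 rows, 26 carried dates for names; they took 0.0785% of UMIs, stayed in totals and were not compared. No doublet caller was run.

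Cells, lists and divides were chosen with earlier results of these data known. Levels carry exact Poisson, shares Clopper-Pearson and ratios exact conditional binomial intervals at 95%. Floors are 3 counts over a group. Named genes are the 25 most abundant, the genes of the microglia, class II and border lists, the 12 highest and 12 lowest ratios without mitochondrial, ribosomal and predicted genes, and up to 4 members of each other list with most UMIs (2 for other cell types). Further genes named in single cells, and Rel, Tnfaip3 and Tlr2, were chosen after their values were seen. A few genes within this rule are not reported here. The comparison was tested on simulated counts: intervals held the true ratio at about their stated level, and estimates followed the values put in, drawn toward 0 by the pseudocount. A recovery goal set at first for larger changes was missed for lowered genes of few UMIs and was replaced by these checks. Unchanged genes of few UMIs passed 2-fold by counting noise alone often enough that a call of a scarce gene is uncertain. The number of calls with an interval clear of 1 is therefore given for all cells and for cells under 5000 UMIs; it was not computed for the other alternatives or the lists. Python 3.11.15 was used with pandas 2.3.3, numpy 2.4.6 and matplotlib 3.10.9, and intervals came from scipy 1.17.1.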

Additional observations from a re-analysis of the deposited data

How the results depend on the processing

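No paired analysis was possible because the uninjured cells are 1 library. The share of cells meeting the microglia list was 38% with each cell thinned to 450 UMIs, against 60%; under its other alternatives it stayed within the counting interval, as did the class II and border shares under each alternative run. The 25 most abundant genes took 25.3% of UMIs with each cell weighted equally, 24.5% without cells of at least 5000 UMIs and 31.4% with the haemoglobin-rich cell. Genes higher in Malat1-rich cells numbered 235 with a pseudocount of 200 CPM and 1555 with no filter on low counts, against 392. Genes higher in Malat1-poor cells numbered 109 and 599 under these settings and 288 with each cell weighted equally, against 188. A divide at 0.5% Malat1 gave the same cells, and one at 2% moved 1 cell. Of 120 named genes compared, 4 changed direction in at least 1 alternative. Apoe was at -0.78 with equal weights, -2.68 without cells of at least 5000 UMIs and -0.24 without its highest cell. Lyz2 was at -0.10, -2.72 and -2.11 under the same settings, Ccnd2 at -0.022, -1.45 and -0.49, and Cd74 at -2.71 without the deep cells. Leaving out the cells with no pan-macrophage UMI, an alternative chosen after seeing the data like that of the highest cell, gave 379 and 177 genes. With 76399 UMIs in 1 library, depth limits genes of few UMIs, and a count of 0 in the poor cells allows up to 116 CPM.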

Other observations

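Y-linked genes had 23 UMIs in 12 of the 50 cells, while Xist, which is expressed from the inactive X chromosome of female cells, had none there and none among the 3785491 UMIs of all 778 cells. The design text gives mice of both sexes. Of the Y-linked genes Eif2s3y had 11 UMIs, Ddx3y 7, Kdm5d 3 and Uty 2, and 22 of the 23 UMIs lay in Malat1-rich cells.

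Of 12 listed glycolysis genes 4 were compared, with 1 higher in rich cells and 2 in poor cells. Over all compared genes these shares were 36.6% and 17.6%, and 4 genes are too few to set against them. The ratio of the sums of the glycolysis list was 1.08 (0.781 to 1.52). Hk2, the hexokinase gene, had 61 UMIs in 15 cells rich in Malat1 and 7 in 5 poor cells, a ratio of 4.48 (2.05 to 11.6), while Gapdh, at 12 and 15 UMIs, and Aldoa, at 6 and 12, were higher in poor cells by 2.43-fold (1.06 to 5.69) and 3.89-fold (1.35 to 12.6). Of 11 listed interferon genes 4 were compared, with 1 higher in rich cells and 2 in poor cells, beside the same 36.6% and 17.6%. The ratio of the sums was 0.704 (0.454 to 1.10). Ifi27l2a and Bst2 had 5 and 14, and 3 and 9 UMIs in rich and poor cells.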
